A study of Mus musculus with 4 samples.

Results

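RNA for the cohesin complex was examined in germ cells of fetal mouse ovaries at E18.5, in 2 libraries from mothers fed a normal diet (ND) and 2 libraries from mothers fed a high-fat diet (HFD). The 10 genes were chosen by name: 4 subunits found mainly in meiotic cells (Smc1b, Rec8, Rad21l and Stag3), 5 subunits of general use (Smc1a, Smc3, Rad21, Stag1 and Stag2) and Wapl, which releases the ring from DNA. All 10 were found among the 55401 identifiers of the count files. The mothers were ICR females kept on either diet for 4 months and mated with males on the normal diet, so that both groups differ in maternal diet and carry no mutation or transgene. Each library was made with SMART-Seq2, an amplification method for small amounts of RNA, from pooled SSEA-1-positive cells of several fetuses sorted by flow cytometry. The labels call the cells primordial germ cells, whereas at this age the study treats them as oocytes in meiotic prophase. Pools that shared a litter are not marked in the labels, so that p-values measure only the spread between these samples.

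Cohesin is a ring that holds sister chromatids together and shapes chromatin loops. It is built from an SMC1 and an SMC3 protein, a kleisin that closes the ring (RAD21 in most cells, REC8 or RAD21L in meiosis) and a STAG protein bound to the kleisin. In meiotic prophase SMC1B, REC8, RAD21L and STAG3 form much of the chromosome axis on which homologues pair, and REC8 rings laid down in the fetal oocyte are known to hold chromosomes together until the meiotic divisions of the adult.

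Total counts per library ran from 5723605 to 8223255, so that a floor of 3 counts equalled between 0.365 and 0.524 CPM (counts per 1000000 counts of the library). Reads lay on 80.2% to 96.0% of 1135 olfactory receptor genes, whose level stood for background. A gene was taken as above background in a library if its reads per kilobase of exon were over the 99th percentile of these receptor genes there, a limit of 7.44 to 12.5, and if it had over 3 counts. Of 11 germ cell markers, 7 to 11 exceeded the limit in a library and 0 were at 0 counts, with a summed level of 1993 to 4966 CPM. Single markers scattered between libraries in either direction, and 6 of the 11 exceeded background in all 4. For Ddx4, a germ cell RNA helicase gene, the counts of both ND libraries followed by both HFD libraries were 49, 97, 5 and 14. Counts in the same order were 14247, 29465, 2926 and 49 for the RNA-binding protein gene Dazl, and 36, 48, 9038 and 7978 for Sycp1 and 1684, 27, 1958 and 17 for Sycp3, which both encode synaptonemal complex proteins. Several germ cell genes were thus near background in a library where others were abundant. Markers of other cells were also present and differed between libraries. Stromal markers summed to 69.0 to 7700 CPM and pregranulosa markers to 20.8 to 2083 CPM, both highest in HFD replicate 2. Only 3 of the 10 pregranulosa markers exceeded background in that library, and Rspo1 (920 CPM) and Amhr2 (1113 CPM) gave most of the sum. Foxl2 had 34 counts both there and in ND replicate 1. Of 9 stromal markers 6 exceeded background in HFD replicate 2, whereas Dcn and Lum, at 2.97 and 1.22 CPM there, were highest in ND replicate 1. Blood markers summed to 1973 CPM in ND replicate 1 and to at most 10.8 CPM elsewhere. In such bulk samples fewer cells of a type and less RNA per cell cannot be told apart.

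The meiotic subunits were unequal in the RNA counted: Smc1b was among the most abundant coding genes of every library, whereas Rec8, Rad21l and Stag3 lay at or near the background limit. Some germ cell markers, such as Ddx4, were also low in these libraries, whereas others were abundant. Whether low counts mean little RNA in the cells or loss during amplification was not tested. The promoters of the most and least abundant of the 4 are shown here for that contrast, as RefSeq gives them on GRCm38.p6, where 8 of the 10 members matched. Each reads 5′ to 3′ up to the transcription start, leaving out bases that GENCODE M21 counts as exon, and capitals mark the letters TCCCGC of an E2F-type motif, searched on both strands.
Smc1b, chr15:85131965-85132207, minus strand: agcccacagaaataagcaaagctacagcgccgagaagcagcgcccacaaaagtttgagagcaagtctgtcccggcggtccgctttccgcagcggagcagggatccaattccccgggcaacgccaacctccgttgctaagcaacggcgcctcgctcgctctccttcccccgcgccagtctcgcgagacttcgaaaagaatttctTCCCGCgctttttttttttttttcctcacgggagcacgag
Rad21l, chr2:151668534-151668783, minus strand: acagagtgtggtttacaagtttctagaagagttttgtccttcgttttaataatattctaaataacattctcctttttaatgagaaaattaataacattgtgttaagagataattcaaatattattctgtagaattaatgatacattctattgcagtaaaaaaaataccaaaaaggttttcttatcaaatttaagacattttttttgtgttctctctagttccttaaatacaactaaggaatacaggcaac

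In the 250 bases before the start, the Smc1b promoter held 25 CpG dinucleotides at a GC content of 58.0%, and that of Rad21l held 1 CpG at 25.6%. The median over 32851 mouse promoters was 6 CpG and 52.4%. The window of Stag3 held 26 CpG and that of Rec8 held 10. In M21 all 250 bases of the Stag3 window and 129 bases of the Rec8 window count as exon of the gene itself. Within these RefSeq windows CpG number did not follow the RNA level among the 4 genes. The E2F-type letters were present before the RefSeq start of Smc1b, Rec8, Smc3 and Stag1 and in 16.9% of all promoters. Those of Rec8 lay within the bases that M21 counts as its exon. The letters CNCCTCAG, a motif given for the meiotic initiator STRA8 with its partner MEIOSIN, were found before 0 of the 8 members and in 6.42% of all promoters.

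Across the 4 libraries the members fell into groups by how often they exceeded the background limit. Smc1b, Rad21 and Wapl did so in all 4 libraries, Smc3 and Stag1 in 3, Rec8 in 2, Smc1a and Stag3 in 1, and Rad21l and Stag2 in 0. Of 21897 coding genes, 3.36% exceeded the limit in all 4 libraries, 5.64% in 3, 11.5% in 2, 22.3% in 1 and 57.3% in 0. Between 4 and 6 of the 10 members exceeded it in a single library, with 4 in HFD replicate 1 and 6 in each of the others. Of the 4 meiotic subunits, 3 and 2 exceeded it in the ND libraries and 1, which was Smc1b, in each HFD library. Rec8, Rad21l and Stag3 reached at most 1.82 times the limit, and Rec8 was at 0.926 times it in HFD replicate 2. How the meiotic subunits split by diet depends partly on the limit, which was highest in HFD replicate 2, the library with the fewest counts. Rec8 was below the limit there at 2.02 CPM per kilobase of exon, but above it in ND replicate 1 at 1.08. In HFD replicate 1 Rec8 and Stag3 were lower than in either ND library, at 0.211 and 0.216. The share of coding genes above the limit was not counted per library. With the limit at the 95th percentile, Rec8 exceeded it in 3 libraries and Rad21l and Stag3 in 2 each. Only in HFD replicate 1 was Smc3, the subunit shared by all cohesin rings, at background.

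**Figure D1:**
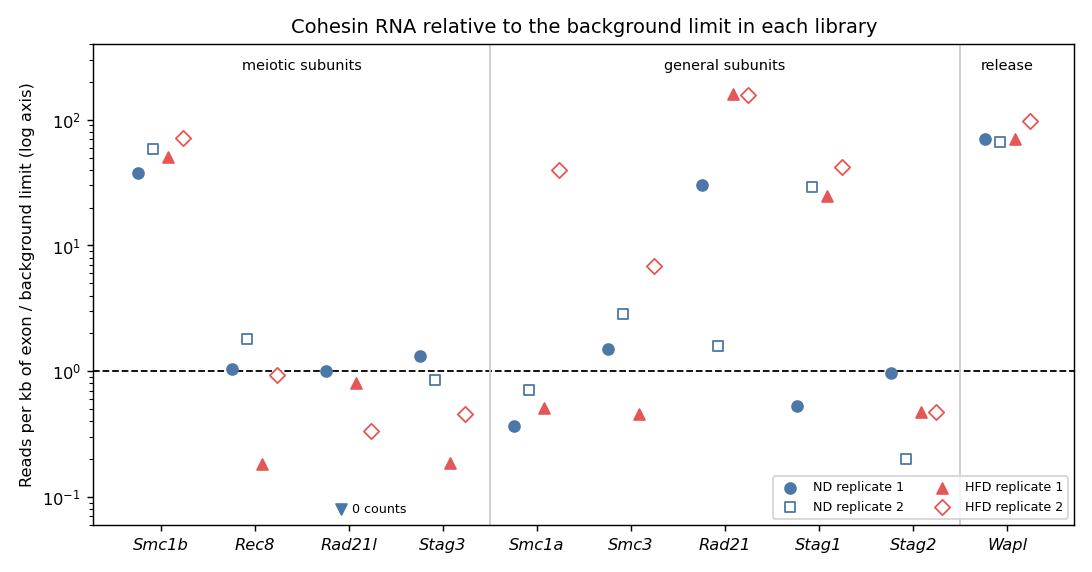
Reads per kilobase of exon of each cohesin gene, divided by the background limit of the same library (log axis, dashed line at the limit), with 1 point per library. Smc1b and Wapl lie 37.4 to 97.3 times above the limit in every library, Smc1a does so only in HFD replicate 2 (39.6 times), and Rec8, Rad21l, Stag3 and Stag2 reach at most 1.82 times the limit.

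Ordered by the mean level per kilobase over the 4 libraries (CPM per kilobase of exon), Rad21 came first at 141, followed by Wapl at 110.5, Smc1b at 80.4, Stag1 at 38.7, Smc1a at 22.1 and Smc3 at 5.12. Rec8 followed at 1.35, Stag3 at 0.890, Stag2 at 0.702 and Rad21l at 0.674. The ranges of every neighbouring pair in this order overlapped. The lowest library of Smc1b, at 38.5 CPM per kilobase, and that of Wapl, at 72.0, lay above the highest library of Smc3, at 15.1, and above every value of Rec8, Stag3, Stag2 and Rad21l. Within single libraries Wapl ranked first in both ND libraries and Rad21 in both HFD libraries.

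Smc1b encodes the meiotic partner of SMC3 and lies on chromosome 15 of GRCm38 from 85064689 to 85131964. In ND replicates 1 and 2 its counts were 1281 and 2142, and in HFD replicates 1 and 2 they were 1510 and 3655, or 156, 274, 234 and 639 CPM. In CPM the diets overlapped, since HFD replicate 1 lay between the ND libraries. By level per kilobase it stood above 95.4% to 98.6% of coding genes. After TMM normalization, which rescales libraries by the bulk of their genes, the mean was 222 ± 98.1 CPM in ND and 381 ± 60.8 CPM in HFD (SD, n = 2 each). Fitted across all genes, HFD over ND gave a log2 fold change of 0.78, with a 95% interval from -3.21 to 4.77 and an adjusted p of 0.902 in edgeR's quasi-likelihood test. It ranged from 0.31 to 1.25 with each library left out in turn.

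Rec8, the meiotic kleisin that separase cuts, lies on chromosome 14 from 55618037 to 55625395. Its counts were 26 and 48 in ND and 4 and 34 in HFD, or 3.16, 6.14, 0.620 and 5.94 CPM. Both ND libraries lay just above the background limit, at 1.05 and 1.82 times it, and both HFD libraries below it, at 0.183 and 0.926 times. The counting intervals of ND replicate 2 (4.53 to 8.14 CPM) and HFD replicate 2 (4.11 to 8.30 CPM) overlapped, as did the diets. The fitted log2 fold change was -0.97 (95% interval -3.12 to 1.18, adjusted p = 0.701 in edgeR), and ranged from -2.40 without HFD replicate 2 to -0.39 without HFD replicate 1.

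Stag3, the meiotic STAG protein, lies on chromosome 5 from 138280240 to 138312393. It had 64 and 44 counts in ND and 8 and 33 in HFD, or 7.78, 5.63, 1.24 and 5.77 CPM. Both HFD values lay below both ND values after TMM normalization (7.63 and 5.99 against 1.79 and 3.83) but not in plain CPM. Only ND replicate 1 exceeded background, at 1.32 times the limit. The log2 fold change was -1.26 (95% interval -2.64 to 0.12, adjusted p = 0.406 in edgeR), below 0 in all leave-one-out fits, from -1.92 to -0.93.

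Rad21l, the second meiotic kleisin, lies on chromosome 2 from 151645404 to 151668533 and had 14 and 0 counts in ND and 10 and 7 in HFD. In ND replicate 2 the floor of 3 counts equals 0.384 CPM, and the counting interval of 0 counts reaches 0.472 CPM. All 4 libraries were at background, although ND replicate 1 reached 0.996 times the limit. The sign of its log2 fold change, 0.83 with all libraries, was not kept when ND replicate 2 or HFD replicate 1 was left out (-0.16 and -0.15).

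Rad21, the general kleisin, was the single ring subunit whose diets did not overlap on either scale. Of all genes tested, 13.9% in plain CPM and 16.1% after TMM normalization also had both HFD libraries above both ND libraries. Rad21 lies on chromosome 15 from 51962240 to 51991747. Its counts were 1082 and 60 in ND, and 5062 and 8384 in HFD. These are 132, 7.68, 784 and 1465 CPM, so that both HFD libraries exceeded both ND libraries with or without TMM normalization. The ND libraries themselves differed 17.1-fold in CPM and the HFD libraries 1.87-fold. TMM-normalized means were 68.6 ± 85.4 CPM (ND) and 1053 ± 114 CPM (HFD; SD, n = 2 each). Its log2 fold change of 3.94 had a 95% interval from -1.75 to 9.62 and did not pass edgeR's test (unadjusted p = 0.137, adjusted p = 0.485). With each library left out in turn it lay between 2.98 and 6.94. DESeq2 on all genes called it (adjusted p = 0.0149), and DESeq2 on the genes that passed the filter did not (adjusted p = 0.0766). The fit on all genes called 40.3% of the genes to which it gave an adjusted p.

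Stag1 and Stag2 encode alternative STAG proteins of somatic cohesin. Stag1 lies on chromosome 9 from 100597798 to 100959375. Its counts were 53 and 3102 in ND and 2182 and 6184 in HFD, or 6.45, 397, 338 and 1080 CPM. In plain CPM ND replicate 2 lay between the HFD libraries, whereas ND replicate 1 was at background. Its log2 fold change of 1.5 (95% interval -4.17 to 7.16, adjusted p = 0.856 in edgeR) became 0.44 without ND replicate 1 and 6.50 without ND replicate 2. Stag2 lies on chromosome X from 42149317 to 42277185. Its counts were 68 and 15 in ND and 29 and 49 in HFD, at or below 0.970 times the limit in every library. The fold change on the log2 scale was 0.26 (95% interval -1.60 to 2.12) and turned to -0.46 without ND replicate 2.

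Smc1a, the general counterpart of Smc1b on chromosome X from 152016428 to 152062694, exceeded background in 1 library. It had 18 and 37 counts in ND and 22 in HFD replicate 1, all at background, and 2862 counts in HFD replicate 2, which held 98.0% of its summed CPM. A share over 90% in 1 library was seen for 19.1% of the 9828 tested genes that exceeded background somewhere. HFD over ND gave a log2 fold change of 5.56 (95% interval -0.16 to 11.28, unadjusted p = 0.0548, adjusted p = 0.406 in edgeR) and fell to 0.45 without HFD replicate 2. DESeq2 called it on all genes (adjusted p = 0.00245) and on the filtered genes (adjusted p = 0.022). The fit on all genes called 40.3% of the genes to which it gave an adjusted p. HFD replicate 2 was also the library with the highest stromal and pregranulosa sums, the latter mostly from Rspo1 and Amhr2. Whether other cells contributed to the Smc1a value was not tested.

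Smc3 lies on chromosome 19 from 53600398 to 53645833. Its counts were 71 and 143 in ND and 19 and 479 in HFD, or 8.63, 18.3, 2.94 and 83.7 CPM. The HFD libraries thus lay on both sides of the ND libraries and differed 28.4-fold from each other. Its log2 fold change of 1.11 (95% interval -2.31 to 4.53) became -1.71 without HFD replicate 2. A processed pseudogene, Gm29763 on chromosome 7, matched the Smc3 transcript at 94.5% over 616 bases and held 0 to 5 counts per library.

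Wapl, on chromosome 14 from 34673928 to 34747983, spanned 2.95-fold from its lowest to its highest library in CPM, the smallest span of the 9 genes with counts in every library. It had 3920 and 3973 counts in ND and 3452 and 8062 in HFD, or 477, 508, 535 and 1409 CPM, and stood 66.6 to 97.3 times above the background limit. Both HFD values exceeded both ND values, by little for HFD replicate 1 in plain CPM. The TMM-normalized mean was 504 ± 51.8 CPM in ND and 854 ± 115 CPM in HFD (SD, n = 2 each). Wapl had a fitted log2 fold change of 0.76 (95% interval -3.64 to 5.17, adjusted p = 0.918 in edgeR), from 0.58 to 0.81 with each library left out.

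Across all 19335 genes tested, 0 were called between the diets by edgeR at an adjusted p under 0.05 and a fold change over 1.5 (0%), and 0 of the 10 members were called. Without adjustment, 2171 genes or 11.2% had p under 0.05, and 0 of the members did. All 10 members passed the filter on low counts. The fitted log2 fold change was above 0 for 8 members and below 0 for 2, Rec8 and Stag3, against 51.5% above 0 over all genes. Its median was 0.81 over the members and 0.03 over all genes. DESeq2 on all genes called 40.3% of the 6251 genes to which it gave an adjusted p, and 2 members, Smc1a and Rad21, of the 6 with an adjusted p. After TMM normalization both HFD libraries lay above both ND libraries for 4 members (Smc1b, Rad21, Stag1 and Wapl) and for 16.1% of all genes, and below them for Stag3 and for 17.8% of all genes. In plain CPM this held for 2 members, Rad21 and Wapl, against 13.9% of genes, and for 0 members in the downward direction, against 13.4%. In plain CPM 7 of the 10 members were highest in HFD replicate 2, the library with the fewest counts and the largest TMM factor (1.51). The share of all genes that were highest in that library was not counted.

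**Figure D2:**
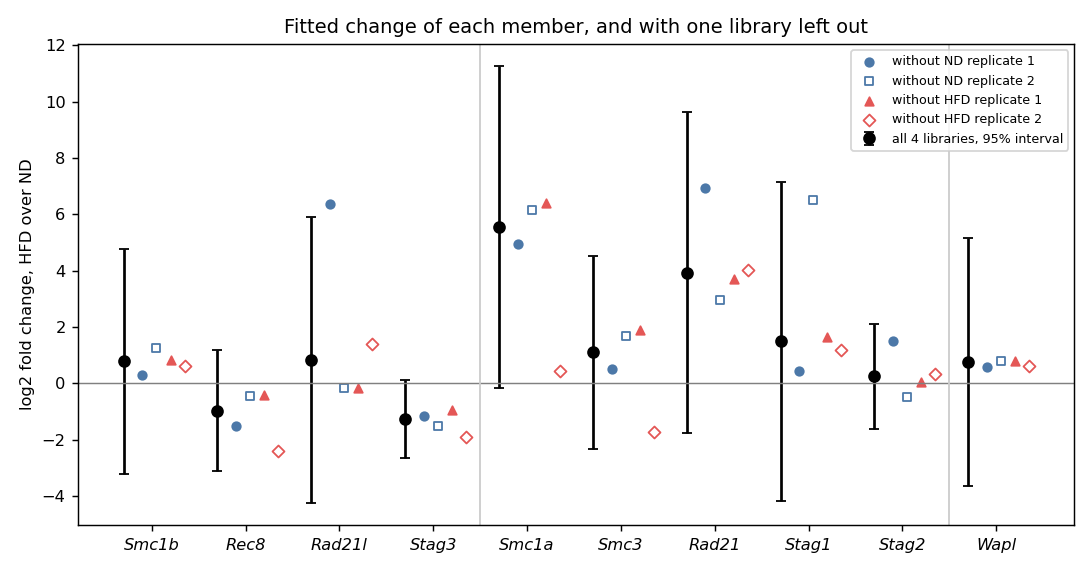
Fitted log2 fold change of HFD over ND for each cohesin gene from all 4 libraries (black, bars are 95% intervals of the fit) and with 1 library left out (coloured points). Every interval includes 0, Wapl and Smc1b move least between fits, and Smc1a falls to 0.45 without HFD replicate 2.

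The meiotic subunits were then set against the general subunits within each library, which removes library size from the comparison. The summed level of Smc1b, Rec8, Rad21l and Stag3 was 42.0 and 70.8 CPM per kilobase in ND replicates 1 and 2 and 59.1 and 162 in HFD replicates 1 and 2. That of the 5 general subunits was 34.6 and 39.9 in ND and 216 and 541 in HFD. The ratio of meiotic to general RNA was therefore 1.21 and 1.78 in ND and 0.274 and 0.299 in HFD. The diets did not overlap, and the difference in the log2 ratio, HFD minus ND, was -2.36 (ND 0.55 ± 0.39, HFD -1.80 ± 0.09, SD, n = 2 each). This separation rested on Rad21, which gave 185 of 216 and 346 of 541 CPM per kilobase of the general sum in HFD. The ND sums rested on different subunits. In ND replicate 1 Rad21 gave 31.1 of 34.6 CPM per kilobase and Stag1 0.547. In ND replicate 2 Stag1 gave 33.7 of 39.9 and Rad21 1.81. With Rad21 left out of the general sum, the ratio was 12.04 and 1.86 in ND and 1.95 and 0.831 in HFD. The difference in the log2 ratio was then -1.90, but HFD replicate 1 lay above ND replicate 2, so that the diets overlapped. With any other general subunit left out they did not overlap. No p is given, because the members were chosen with results of these libraries known, and 2 libraries against 2 allow no exact p under 0.333.

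Taken by position in the ring, the ratio rested on different genes in different libraries. Smc1b made up 91.8% to 97.7% of the meiotic sum. Smc1b exceeded Smc1a 101-fold and 82.5-fold in ND and 97.8-fold in HFD replicate 1, where Smc1a was at background, but only 1.82-fold in HFD replicate 2. For the kleisins, Rec8 plus Rad21l against Rad21 gave 0.0677 and 1.15 in ND and 0.00618 and 0.00798 in HFD, where both HFD values lay below both ND values. For the STAG proteins, Stag3 against Stag1 plus Stag2 gave 0.878 and 0.0289 in ND and 0.00739 and 0.0108 in HFD, also without overlap. The highest of these values came from ND replicate 1, where Stag1 was at background. How often ratios of other genes part the diets was not counted. Rec8, Rad21l and Stag3 were at or near background in these ratios: Rec8 plus Rad21l lay between 1.14 and 2.76 CPM per kilobase, while Rad21 lay between 1.81 and 346. Wapl against Smc1b gave 1.87 and 1.13 in ND and 1.40 and 1.35 in HFD, with the HFD libraries between the ND libraries.

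**Figure D3:**
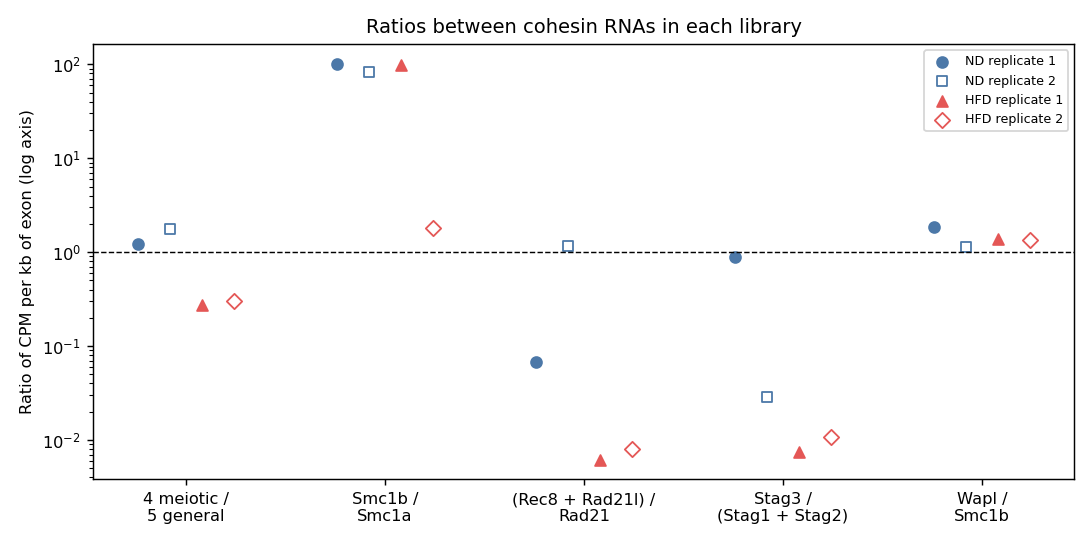
Ratios between cohesin RNAs in each library, on CPM per kilobase of exon (log axis, dashed line at equal levels), with 1 point per library. The meiotic to general ratio is 1.21 and 1.78 in ND against 0.274 and 0.299 in HFD. Without Rad21, a setting not drawn, the diets overlap and the difference in the log2 ratio, HFD minus ND, is -1.90. Wapl against Smc1b stays between 1.13 and 1.87.

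Other genes that load, acetylate, protect or cut cohesin were followed in a list of 22, of which 21 passed the filter. Higher and lower values in HFD were fitted for 8 and 13 of them, with a median log2 fold change of -0.51. By edgeR 0 were called, while 1 rose and 1 fell at an unadjusted p under 0.05, against 4.82% and 6.41% of all genes in the same directions. Hdac8, which deacetylates SMC3, had 20 and 19 counts in ND and 379 and 25 in HFD (log2 fold change 4.12, unadjusted p = 0.0466), and its value became 0.12 without HFD replicate 1. Bub1, a kinase that helps to place shugoshin at centromeres, had 4979 and 53 counts in ND and 10 and 2 in HFD (log2 fold change -7.94, unadjusted p = 0.0373), and its value became -2.59 without ND replicate 1. Pttg1, the securin that restrains separase, was the single gene of the list above background in all 4 libraries, with 72 and 16949 counts in ND and 16 and 113 in HFD, which gave a log2 fold change of -7.10, or -0.14 with ND replicate 2 left out. Nipbl, a cohesin loader, had 59 and 92 counts in ND and 2651 and 64 in HFD, and the acetyltransferase gene Esco2 had 8252 and 112 in ND and 21 and 102 in HFD. Sgo2a, a protector of centromeric REC8, was at background in every library, with 11 to 39 counts.

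The related condensin and SMC5/6 complexes gave 14 further genes, all of them tested, with 6 higher, 8 lower and a median log2 fold change of -0.44. Again 0 were called by edgeR, and 5 had an unadjusted p under 0.05, all lower in HFD, against 6.41% of all genes lower and 4.82% higher at that p. Smc6 had 1444 and 16318 counts in ND and 34 and 151 in HFD (log2 fold change -6.56, unadjusted p = 0.0428; -3.86 without ND replicate 2). Nsmce4a had 8949 and 132 counts in ND and 2 and 26 in HFD (log2 fold change -8.26, unadjusted p = 0.0342), and its value became -3.45 without ND replicate 1. Smc5, Ncaph and Ncaph2 had at most 52 counts in any library, with Smc5 and Ncaph at background in all 4, and their log2 fold changes were -2.17, -1.23 and -1.15. Smc2, Smc4 and Nsmce1 exceeded background in all 4 libraries. The condensin ATPase genes Smc2 and Smc4 had 1677 and 54 and 639 and 170 counts in ND and 6106 and 654 and 3697 and 1331 in HFD, where the diets overlapped for Smc2 but not for Smc4.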

How the data were processed

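RNA of sorted germ cells from E18.5 fetal ovaries was measured in 2 ND and 2 HFD samples. Per the labels and the methods of the study, the authors used Trim Galore for trimming, HISAT2 for alignment to mm10 and featureCounts for counting reads per gene; the annotation release, strand setting and treatment of multiply aligned reads are not given in the sources used here. The deposited counts are whole numbers per gene, 1 library per sample, and were used without change. Names, positions and exon lengths were taken from GENCODE M21 (GRCm38), matched on identifiers without version; 260 of 55401 identifiers had no match. Strand being unknown, overlapping genes were checked, and of the members only Stag2 shared exon bases, 28 of them, with another gene (Gm37564, at most 7 counts).

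All genes were fitted together in R 4.3.3 with edgeR 4.0.16: filterByExpr (19335 genes kept), TMM factors, glmQLFit (legacy FALSE, robust FALSE), glmQLFTest and Benjamini-Hochberg adjustment. A call needed an adjusted p under 0.05 and a fold change over 1.5. Standard errors were obtained by dividing the absolute log2 fold change by the root of the F statistic, and 95% intervals use the degrees of freedom of the fit. DESeq2 1.42.0, the tool of the study, and limma-voom (limma 3.58.1) were alternatives. The functions were tested on simulated data whose spread was set beforehand and not taken from these libraries. That test does not show how they perform at the spread seen here. Counting intervals are exact Poisson intervals, and with the floor of 3 counts they cover counting error only, as the reads carry no molecular identifiers. Olfactory receptor genes were the coding genes with an Olfr symbol. Near-identical copies were sought by BLAST of member transcripts against M21 transcripts, at 90% identity over at least 200 bases.

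The members, lists, background measure and motifs were chosen with earlier results of these data known. Named besides the members were listed genes with an unadjusted p under 0.05 or above background in all 4 libraries. Nipbl, Esco2 and Sgo2a, the 4 germ cell markers shown of 11 and the named somatic markers were picked after their values were seen. Of the marker lists, endothelial markers summed to 18.8 to 698 CPM, macrophage markers to 5.89 to 31.6 CPM and proliferation markers to 34.2 to 2512 CPM.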

Additional observations from a re-analysis of the deposited data

How the results depend on the processing

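Of all genes tested, edgeR called 0 with every other normalization, filter and left-out library tried, and limma-voom called 0. The legacy fit of edgeR called 34. DESeq2 on all genes called 2518 of the 6251 genes to which it gave an adjusted p (40.3%), and DESeq2 on the filtered genes 2291 of 6590. The same 2 DESeq2 fits called 2 and 1 cohesin members and 15 and 14 of the other listed genes, and the legacy fit called 0 of either; the cause was not tested. Scaling by library size only moved the median log2 fold change of all genes from 0.03 to 0.21 and kept the sign of every member. Requiring 10 counts in every sample left 7 of the 10 members to test. With limma-voom the log2 fold change of Smc3 was -0.59. With each library left out, values ranged from -0.16 to 6.39 for Rad21l, whose ND group is then a library at 0 counts at the upper end, from -1.71 to 1.89 for Smc3, from -0.46 to 1.5 for Stag2 and from -0.56 to 6.58 for Smc2. In those fits the lone sample of a diet is assumed to vary like the other diet. The log2 ratio of meiotic to general RNA, HFD minus ND, moved from -2.36 to -3.73 without Smc1b among the meiotic subunits. With general subunits left out 1 at a time, settings of which all but that of Smc3 were chosen after seeing the data, it was -1.90 without Rad21, where the diets overlapped, and -3.48 without Stag1. Under the other settings it lay between -2.63 and -2.02. Members present in all 4 libraries numbered 3 by the olfactory limit, also at its 95th percentile, but 8 at a minimum of 1 CPM and 7 at a minimum of 10 counts. Replicate numbers are shared between diets, but the correlation of same-numbered samples' deviations was 0.01, so that the numbers were not taken as pairs. With the replicate block edgeR called 0 genes and 0 members, and 1482 instead of 2171 genes had an unadjusted p under 0.05. At 0 to 143 counts per ND library, the levels of Rec8, Rad21l, Stag3, Stag2, Smc1a and Smc3 are limited by counting error and background.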
